A study of Mus musculus with 12 samples.

Results

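The Trim genes encode the tripartite motif (TRIM) proteins, and 59 of them were measured among 19938 genes in mouse liver after lipopolysaccharide (LPS). Members were all genes whose symbol in the probe annotation begins with Trim followed by a number, on probe sets that carried 1 symbol. Each of the 59 had 1 such probe set. The livers came from male mice, all C57Bl6/J or bred onto it (strain field C57Bl/6), in 3 groups of 4: homozygous S534A mice given LPS at 1 µg/kg, wild-type (WT) mice given the same dose, and WT mice left untreated. LPS is an outer-membrane component of Gram-negative bacteria that signals through Toll-like receptor 4. S534A mice carry alanine in place of a serine in p65, which Rela encodes and which is a subunit of NF-kB, through a knock-in of exon 10 made in PTL1 embryonic stem cells. The selection cassette was excised with a Flp recombinase, and after 5 backcrosses to C57Bl6/J the mice were interbred until homozygous. The sources used here do not give the time from LPS to collection.

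TRIM proteins share a RING domain, B-box domains and a coiled coil, followed by a variable C-terminal region that is often a B30.2 (PRY-SPRY) domain. Most are E3 ubiquitin ligases, which attach ubiquitin to chosen proteins. Several members regulate the sensors of viral RNA and DNA, or the signalling that runs from Toll-like receptors to NF-kB and the interferon regulatory factors, and part of the family is itself induced by interferon.

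Each array gave log2 values made by RMA (robust multi-array average), in which 1 unit is a doubling. The values ran from 3.43 to 14.48, array medians from 6.15 to 6.32, and arrays of a group correlated at 0.983 to 0.996 across probe sets. How precise a value is depends on having 4 arrays a group. The labels count livers without saying that each came from a separate animal, so a p-value here reflects only how far these samples spread. With no untreated S534A livers analysed here, a genotype difference from before LPS and one in the response cannot be told apart. Untreated and LPS arrays follow different title schemes, and batch and LPS cannot be told apart if the runs were separate too. Rela averaged 11.20 ± 0.06 in S534A LPS livers, 11.11 ± 0.08 in WT LPS livers and 9.96 ± 0.14 in untreated livers (SD, n = 4 each), a transcript level that cannot show the substitution. The 9 hepatocyte markers averaged 13.21 to 13.28 in S534A LPS livers, 13.28 to 13.34 in WT LPS livers and 13.15 to 13.28 in untreated livers. These means pool markers that moved in opposite directions with LPS, counted below.

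Promoter sequence is shown first because several of the members with the largest rises share a short motif there. RefSeq promoter windows of GRCm38.p6, 250 bases before to 50 bases after a start site, were at hand for 46 of the 59 members, in 60 windows. They were searched on both strands for the core of the interferon-stimulated response element (ISRE), which is GAAA, 2 bases of any kind and GAAA again, a choice made with the expression results known. The core was found in 8 of the 46 members (17.4%), and in 1079 of 27025 genes (3.99%) and 1131 of 32851 windows (3.44%) over all promoters. The 8 were Trim12a, Trim12c, Trim2, Trim21, Trim26, Trim30a, Trim30d and Trim34a. Stretches of 30 bases around the matches follow, 5′ to 3′ on the strand of the gene, with every base of a match in capitals. A match on the opposite strand reads TTTC, 2 bases of any kind and TTTC.
Trim30a, start 2 (the upstream one), chr7:104465210-104465239, minus strand: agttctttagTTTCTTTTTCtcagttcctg
Trim30a, start 1, chr7:104446104-104446133, minus strand: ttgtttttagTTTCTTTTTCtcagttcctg
Trim30d, chr7:104507871-104507900, minus strand: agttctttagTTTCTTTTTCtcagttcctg
Trim12a, chr7:104315466-104315495, minus strand: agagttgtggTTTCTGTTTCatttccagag
Trim12c, chr7:104353359-104353388, minus strand: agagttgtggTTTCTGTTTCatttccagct
Trim34a, chr7:104244457-104244486, plus strand: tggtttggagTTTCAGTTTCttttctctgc
Trim21, chr7:102565447-102565476, minus strand: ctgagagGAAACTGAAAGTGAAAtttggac
Trim26, chr17:36836979-36837008, plus strand: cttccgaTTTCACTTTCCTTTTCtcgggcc
Trim2, chr3:84212791-84212820, minus strand: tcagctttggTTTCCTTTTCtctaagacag

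The stretches of Trim30a start 2 and Trim30d were identical letter for letter, and those of Trim12a and Trim12c differed in their last bases alone. In Trim21 and Trim26 the capitals hold 2 overlapping matches. The match lay between base -41 and base -32 from the start of Trim30d, -36 and -27 from start 2 of Trim30a, and -29 and -20 from the start of Trim12c. It lay after the start in Trim12a, Trim34a, Trim21, Trim2 and at start 1 of Trim30a, and at -160 to -145 in Trim26. The 250 bases before start 2 of Trim30a are shown whole because this gene was the marker chosen for the family.
Trim30a, chr7:104465194-104465443, minus strand: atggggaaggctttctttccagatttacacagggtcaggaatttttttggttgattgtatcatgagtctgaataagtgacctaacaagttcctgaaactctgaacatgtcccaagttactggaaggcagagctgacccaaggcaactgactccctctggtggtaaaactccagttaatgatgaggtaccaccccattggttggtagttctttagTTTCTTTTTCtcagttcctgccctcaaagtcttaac
The same stretch of Trim30d aligned with it at 227 of 245 positions (92.7%) with 10 gaps, so much of the sequence around the motif was shared as well. The interferon-gamma activated site, TTCNNNGAA, was in 5 members (10.9%; 9.55% of all genes and 8.3% of all windows), namely Trim15, Trim31, Trim38, Trim45 and Trim46. An NF-kB motif, GGG, 2 bases of any kind and TTTCC, was in 0 of 46 members, 1.89% of all genes and 1.63% of all windows. A match is a run of letters, not a measured binding site, and no match says only that these letters were not in the window.

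**Figure D1:**
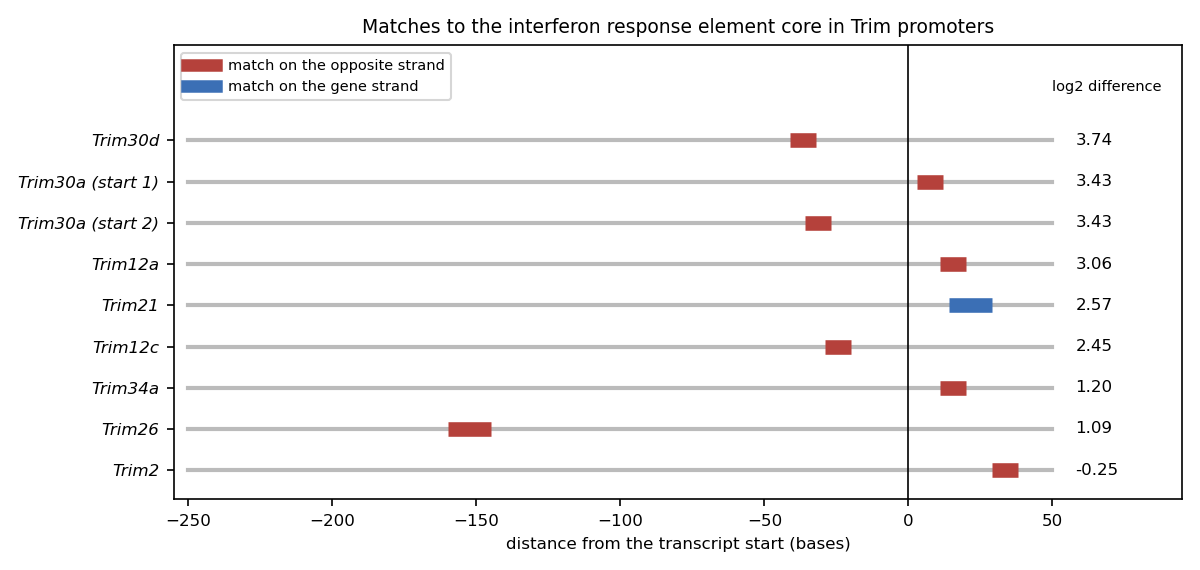
Positions of ISRE core matches (both strands) in the promoter windows of the Trim genes that have one, in bases from the start site of each window (grey lines). Red and blue blocks are matches on the opposite and on the gene strand, and the numbers at the right are the log2 differences between WT LPS and untreated livers. All matches except that of Trim26 lie within about 50 bases of the start.

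The first comparison asked which Trim genes LPS changed in WT liver. In WT LPS livers 14 of the 59 members (23.7%) rose and 4 (6.78%) fell against untreated WT livers, while 41 did not pass the test (limma, adjusted p under 0.05 by Benjamini-Hochberg). Of all genes tested, 9.34% rose and 15.6% fell. At least 2-fold rises were seen in 10 members (16.9%), against 2.09% of all genes, and at least 2-fold falls in 0 members, against 1.03% of all genes. The median difference was 0.12 over the 59 members and 0.02 over all genes, with members running from -0.63 to 3.74. All 4 WT LPS arrays lay above all 4 untreated arrays for 16 members (27.1%; 9.78% of all genes) and below them for 5 (8.47%; 14.9% of all genes). The ISRE core was present in 7 of the 10 risen members that had a promoter window and in 0 of the 4 that fell. Among the 32 members with a window that did not pass, Trim2 alone had it. Over all genes with a window 3.99% had it, and its share among all genes that rose was not computed. The 7 include the near-identical stretches of Trim30a and Trim30d and of Trim12a and Trim12c. Trim14, Trim8, Trim3 and Trim30e-ps1 rose but had no window. Of the 9 members with a window that rose at least 2-fold, Trim56 and Trim25 had no match.

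**Figure D2:**
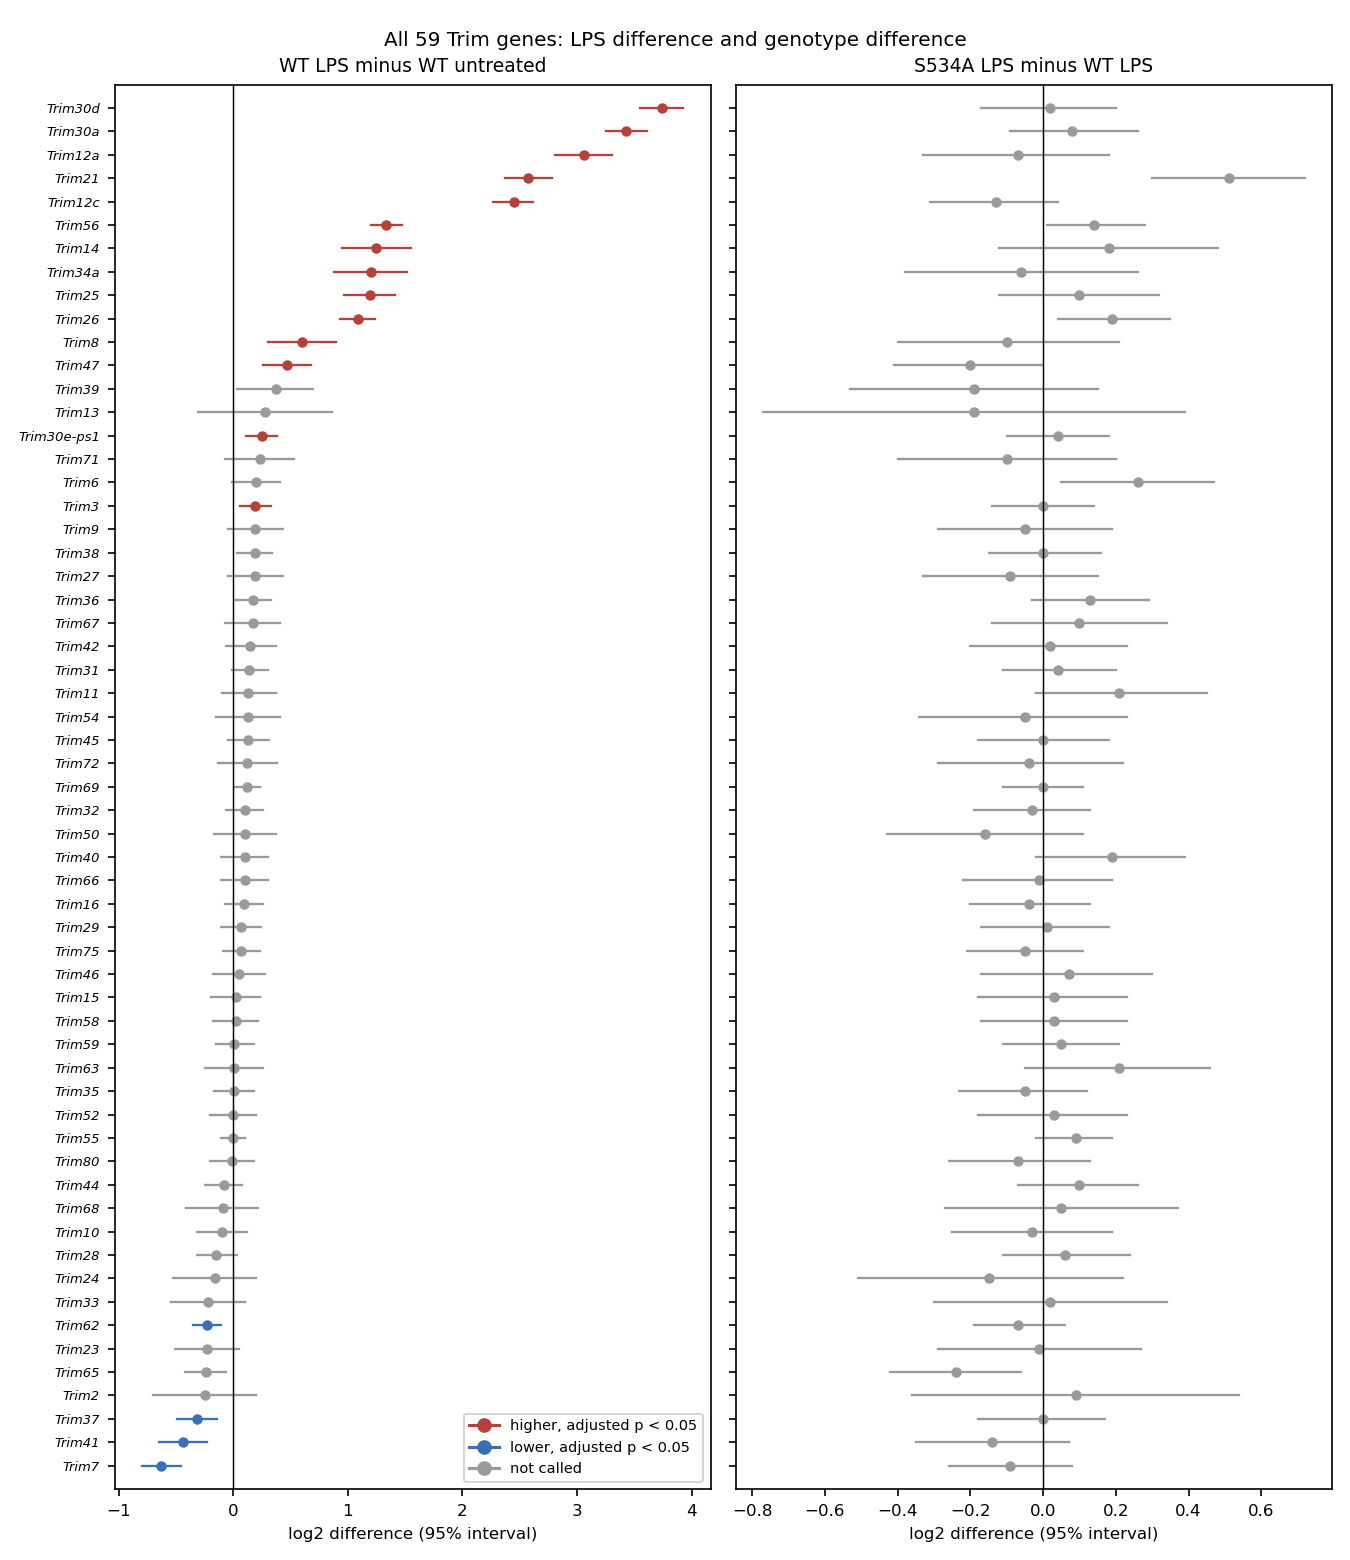
Log2 difference with its 95% interval for each of the 59 Trim genes, one row per gene. One panel gives WT LPS minus WT untreated livers and the other S534A LPS minus WT LPS livers (n = 4 each), with called rises in red, called falls in blue and the rest in grey. A group of 10 genes stands at 1.09 or more in the LPS panel, while no value in the genotype panel exceeds 0.51.

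The 3 largest rises, those of Trim30d, Trim30a and Trim12a, lay in a run of neighbouring genes on chromosome 7. In the order of the RefSeq gene table the run reads Trim6, Trim34a, Trim5, Trim12a, Trim34b, Trim12c, Trim30b, Trim30c, Trim30a, Trim30d and Trim30e-ps1, with at most 10 other genes allowed between neighbours. Of these 11 genes 7 were measured, and 6 of the 7 rose in WT LPS livers, the exception being Trim6. Over all genes 9.34% rose. Trim30e-ps1, counted among the 6, and Trim6 both read below the lowest array median (6.15) on every array. Trim30d read 10.65, 10.75, 10.69 and 10.65 in S534A LPS livers, 10.78, 10.50, 10.62 and 10.76 in WT LPS livers and 6.81, 6.96, 7.14 and 6.81 in untreated livers. Every LPS array stood far above every untreated array. The difference between WT LPS and untreated livers was 3.74 ± 0.09 (log2 difference ± SE, n = 4 each; limma adjusted p = 1.07e-11), or 13.4-fold.

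Trim30a, which in mice limits Toll-like receptor signalling by directing the adaptor proteins TAB2 and TAB3 to degradation, followed closely. Its values were 12.04, 12.09, 12.09 and 12.04 in S534A LPS livers, 12.11, 11.85, 11.92 and 12.04 in WT LPS livers, and 8.56, 8.47, 8.39 and 8.77 in untreated livers. LPS arrays of both genotypes overlapped and untreated arrays lay far below. It was 10.8-fold higher in WT LPS than in untreated livers (3.43 ± 0.08; limma adjusted p = 1.27e-11). Trim12a and Trim12c are mouse relatives of primate TRIM5, which blocks retroviral capsids. Trim12a read 10.64, 10.70, 10.84 and 10.61 in S534A LPS livers, 10.94, 10.67, 10.69 and 10.77 in WT LPS livers and 7.52, 7.43, 7.93 and 7.95 in untreated livers. Trim12c read 8.25, 8.17, 8.12 and 8.14 in S534A LPS livers, 8.42, 8.17, 8.17 and 8.46 in WT LPS livers and 5.98, 5.90, 5.78 and 5.77 in untreated livers. Both were well separated between LPS and untreated livers, with differences of 3.06 ± 0.12 for Trim12a (8.34-fold; adjusted p = 8.23e-10) and 2.45 ± 0.08 for Trim12c (5.45-fold; adjusted p = 2.07e-10) in WT mice.

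Trim34a, another gene of the run, read 7.84, 7.67, 7.68 and 7.86 in S534A LPS livers, 7.79, 7.98, 7.76 and 7.75 in WT LPS livers and 7.10, 6.38, 6.73 and 6.25 in untreated livers. Its untreated arrays were widely spread but stayed below every LPS array. The difference was 1.20 ± 0.15 (2.30-fold; adjusted p = 6.23e-05). It ran from 0.9 to 1.5 over 24 alternatives, so it was not always 2-fold. Trim30e-ps1, a pseudogene by its symbol, moved little, at 0.25 ± 0.06 (1.19-fold; adjusted p = 0.0124), and its difference stayed at 0.25 ± 0.09 without the 3 arrays that carried pancreas transcripts (adjusted p = 0.0869) and at 0.23 ± 0.08 without untreated arrays 2 and 4 (adjusted p = 0.0748), both short of the threshold. Trim6, which builds free ubiquitin chains that activate the kinase IKK-epsilon, differed by 0.20 ± 0.10 (adjusted p = 0.164). These genes are close paralogs, and signal from probes shared between them was not separated here. On the wider chromosome 7 list, which adds Trim21, Trim68 and Trim3 from elsewhere on the chromosome, 8 of 10 measured members rose and 0 fell, with a median of 1.83, where 9.34% of all genes rose and 15.6% fell. Trim28, Trim66 and Trim72, also measured on chromosome 7, were not on this list and were not called (-0.15, 0.10 and 0.12).

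**Figure D3:**
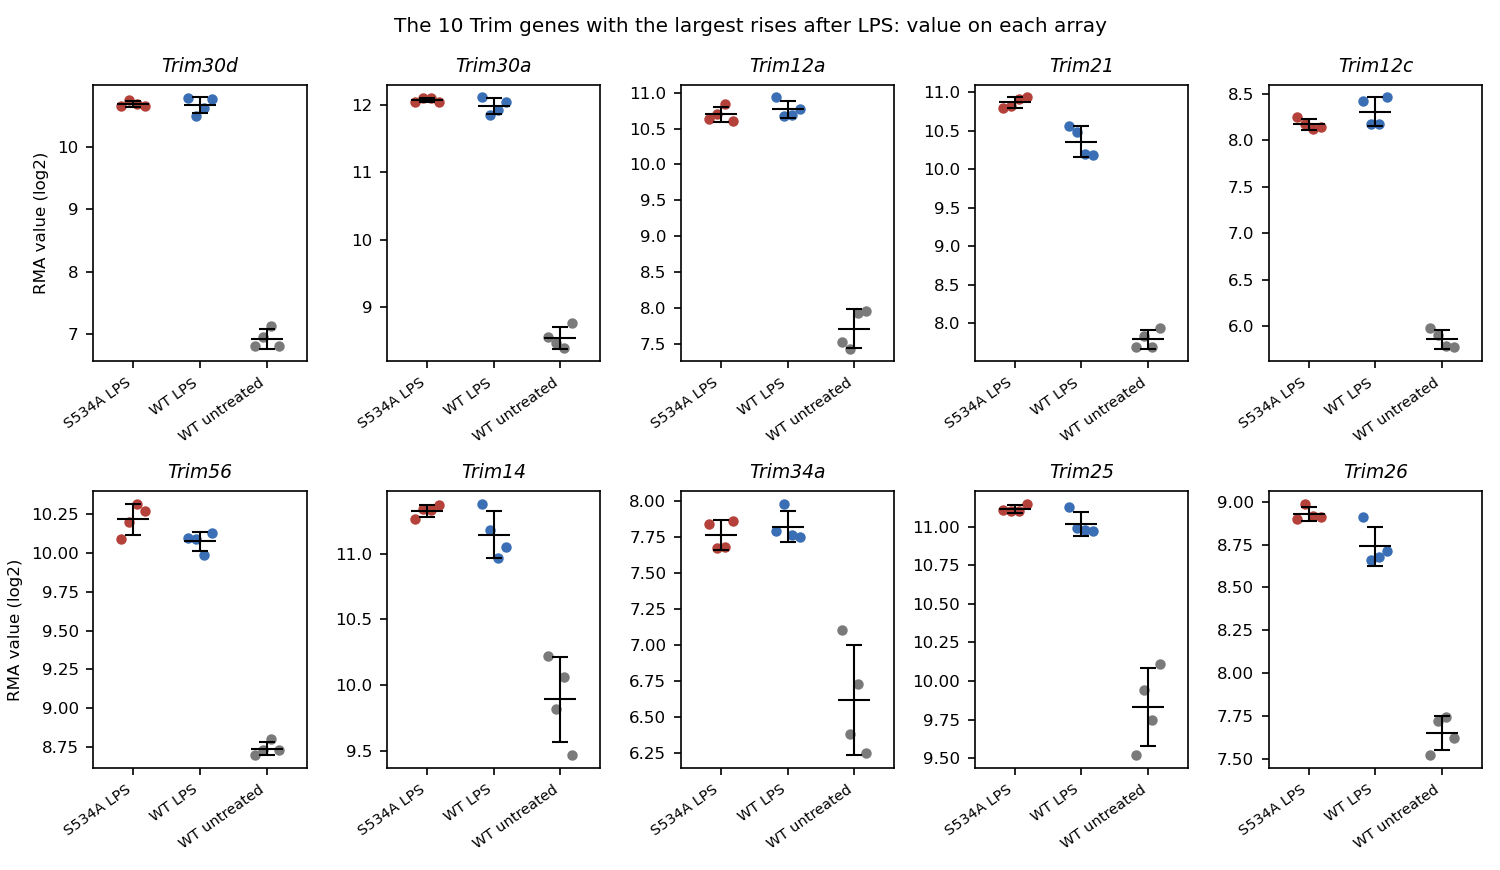
RMA log2 value on each array for the 10 Trim genes with the largest rises, 1 panel per gene, with S534A LPS, WT LPS and WT untreated livers from left to right (4 points each, black bars for mean ± SD). In each panel every LPS array lies above every untreated array. S534A LPS points lie above all WT LPS points in the Trim21 panel, the only such panel.

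Trim21 and Trim26 rose among the 3 listed members that handle antibodies or interferon regulatory factors, while Trim11 did not pass (0.13 ± 0.11; adjusted p = 0.411). Of all genes 9.34% rose. Trim21 is a cytosolic receptor for the Fc part of antibodies and directs antibody-coated virus to the proteasome. It read 10.80, 10.82, 10.92 and 10.94 in S534A LPS livers, 10.57, 10.49, 10.20 and 10.18 in WT LPS livers and 7.69, 7.83, 7.69 and 7.94 in untreated livers. The 3 groups did not overlap. WT LPS livers were 5.94-fold above untreated livers (2.57 ± 0.09; adjusted p = 5.78e-10). Trim26, reported to mark IRF3 for degradation in the nucleus, read 8.90, 8.99, 8.92 and 8.91 in S534A LPS livers, 8.91, 8.66, 8.68 and 8.71 in WT LPS livers and 7.52, 7.72, 7.74 and 7.62 in untreated livers. WT LPS and untreated arrays were apart, by 1.09 ± 0.07 (2.13-fold; adjusted p = 1.99e-07).

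Of the 10 measured members listed as regulators of viral RNA and DNA sensing, 3 rose and 0 fell in WT LPS livers, with a median of 0.17, where 9.34% of all genes rose and 15.6% fell. Trim56, a ligase that promotes STING and Toll-like receptor 3 signalling, read 10.09, 10.20, 10.32 and 10.27 in S534A LPS livers, 10.10, 10.09, 9.99 and 10.13 in WT LPS livers and 8.70, 8.73, 8.80 and 8.73 in untreated livers. The untreated arrays lay close together and more than 1 unit below the rest. The WT difference was 1.33 ± 0.06 (2.52-fold; adjusted p = 5.73e-09).

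Trim14, an adaptor without a RING domain that works with MAVS at mitochondria, read 11.26, 11.34, 11.33 and 11.37 in S534A LPS livers, 11.38, 11.18, 10.97 and 11.05 in WT LPS livers and 10.22, 9.82, 10.06 and 9.47 in untreated livers. Trim25, the ligase best known for activating human RIG-I, read 11.11, 11.10, 11.10 and 11.15 in S534A LPS livers, 11.13, 10.99, 10.98 and 10.97 in WT LPS livers and 9.52, 9.94, 9.75 and 10.11 in untreated livers. For both genes untreated arrays varied most and still stayed below all LPS arrays. The WT differences were 1.25 ± 0.14 for Trim14 (2.38-fold; adjusted p = 2.44e-05) and 1.19 ± 0.10 for Trim25 (2.27-fold; adjusted p = 2.72e-06). Over 24 alternatives they ran from 1 to 1.5 for Trim14 and from 0.99 to 1.38 for Trim25. Trim65, a ligase for the RNA sensor MDA5, just missed the threshold on the low side (-0.24 ± 0.08; adjusted p = 0.0509), and Trim38 on the high side (0.19 ± 0.07; adjusted p = 0.0725).

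Among 8 measured regulators of Toll-like receptor and NF-kB signalling, Trim30a and Trim8 rose and Trim62 fell, with a median of 0.07, beside the same 9.34% and 15.6% of all genes. Trim8, a ligase that promotes NF-kB activation by TNF and interleukin-1, read 9.19, 9.12, 8.93 and 9.01 in S534A LPS livers, 9.12, 9.08, 9.17 and 9.26 in WT LPS livers and 8.15, 8.82, 8.37 and 8.90 in untreated livers. Its WT difference of 0.60 ± 0.14 (1.51-fold; adjusted p = 0.00664) was 0.89 without untreated arrays 2 and 4 and 0.30 without untreated arrays 1 and 3. Trim62, which ubiquitinates the adaptor CARD9, read 6.01, 6.02, 6.06 and 6.03 in S534A LPS livers, 6.10, 6.19, 5.97 and 6.14 in WT LPS livers and 6.32, 6.29, 6.35 and 6.34 in untreated livers. The LPS genotypes overlapped and lay below all untreated arrays, and WT LPS livers were 1.17-fold lower (-0.23 ± 0.06; adjusted p = 0.00943). Without untreated arrays 1 and 3 the difference was about as large, at -0.22 ± 0.07, and just missed the threshold (adjusted p = 0.0518). Trim23 at -0.23 ± 0.13 (adjusted p = 0.223) and Trim27 at 0.19 ± 0.11 (adjusted p = 0.252) did not pass.

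The other falls were in Trim7, Trim41 and Trim37. Trim7, which binds the glycogen primer protein glycogenin, read 5.57, 5.52, 5.46 and 5.54 in S534A LPS livers, 5.66, 5.54, 5.73 and 5.50 in WT LPS livers and 6.37, 6.08, 6.36 and 6.16 in untreated livers. It had the largest fall of the family in WT LPS livers, 1.55-fold (-0.63 ± 0.08; adjusted p = 6.84e-05), with no overlap. Every LPS array of Trim7 read below the lowest array median (6.15), and its untreated arrays lay near that value. Trim41, a ligase for protein kinase C, read 8.36, 8.31, 8.13 and 8.19 in S534A LPS livers, 8.29, 8.40, 8.43 and 8.44 in WT LPS livers and 8.70, 9.07, 8.61 and 8.94 in untreated livers. Trim37, a histone H2A ligase that also limits centrosome assembly, read 7.74, 7.53, 7.66 and 7.58 in S534A LPS livers, 7.69, 7.67, 7.69 and 7.48 in WT LPS livers and 7.82, 8.10, 8.03 and 7.84 in untreated livers. Untreated arrays were the higher ones for both, and WT LPS livers were 1.35-fold lower for Trim41 (-0.44 ± 0.10; adjusted p = 0.00486) and 1.24-fold lower for Trim37 (-0.32 ± 0.08; adjusted p = 0.0113). The Trim41 difference ran from -0.61 to -0.26 over 24 alternatives and kept its call. On the list of autophagy, organelle and damage response members, these 2 fell and Trim47 rose (0.47 ± 0.10; adjusted p = 0.00278) among 10 measured, and Trim39 did not pass (0.37 ± 0.16; adjusted p = 0.110).

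The lists of members with roles in transcription, muscle, the cytoskeleton and development are set beside 9.34% of all genes higher and 15.6% lower in WT LPS livers, and no test of the difference was made. None of the 4 TIF1 members, nuclear regulators that carry a PHD finger and bromodomain, passed the test, with Trim28 (KAP1, the corepressor of KRAB zinc-finger proteins) at -0.15 ± 0.08 (adjusted p = 0.215) and Trim33 at -0.22 ± 0.15 (adjusted p = 0.311). Of the 4 NHL-repeat members Trim3 rose by 0.19 ± 0.06 (adjusted p = 0.0427), a call lost under 16 of 24 alternatives, and Trim71 (0.23) and Trim32 (0.10) did not pass. Calls numbered 0 of 5 on the muscle and membrane repair list, 0 of 4 on the microtubule list and 0 of 8 on the erythroid, testis and embryo list. Of the members on those lists, Trim67 alone read above the array median on at least 4 arrays. For the rest, too little signal and no change cannot be told apart. On those lists the members with the smallest p were Trim72 (0.12), Trim54 (0.13), Trim36 (0.17), Trim9 (0.19), Trim69 (0.12) and Trim42 (0.15).

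S534A LPS livers were next compared with the same untreated WT arrays, so both LPS comparisons share those 4 arrays. In S534A LPS livers 17 members (28.8%) were higher and 5 (8.47%) lower, against 11.0% and 16.0% of all genes, and 10 (16.9%; 2.75% of all genes) were at least 2-fold higher and 0 at least 2-fold lower (1.35% of all genes). Trim21 differed from untreated livers by 3.08 in S534A LPS livers (8.47-fold; adjusted p = 7.75e-11) and by 2.57 in WT LPS livers. In S534A LPS livers Trim30d differed by 3.76, Trim30a by 3.52, Trim12a by 2.99 and Trim12c by 2.32. In WT LPS livers, given above, these 4 differed by 3.74, 3.43, 3.06 and 2.45. Trim6 (0.46 ± 0.10; adjusted p = 0.00320), Trim11 (0.35 ± 0.11; adjusted p = 0.0315), Trim36 (0.30 ± 0.07; adjusted p = 0.00735), Trim40 (0.28 ± 0.09; adjusted p = 0.0408) and Trim65 (-0.48 ± 0.08; adjusted p = 0.000770) were called against untreated livers in S534A alone. Of these, Trim6, Trim36 and Trim40 read below the lowest array median (6.15) on every array. Trim47 was called in WT alone (0.27 and adjusted p = 0.0560 in S534A). Trim40 lost its S534A call under 8 of 23 alternatives (adjusted p up to 0.215), Trim11 under 6 of 24 (up to 0.0912) and Trim36 under 1 of 23 (0.0679), while Trim47 gained one under 6 of 24 (down to 0.0131). A call in 1 genotype and not in the other is no test of a difference, which the direct comparison gives.

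The direct comparison asked whether the p65 substitution changed Trim expression after LPS. No member was called between S534A LPS and WT LPS livers (limma), where 0.166% of all genes were called higher and 0.00502% lower in S534A. At an unadjusted p under 0.05 there were 4 higher members (6.78%; 4.21% of all genes) and 1 lower (1.69%; 1.54% of all genes). The median over members was 0.00. For 2 members, Trim21 and Trim55, no WT LPS array reached the lowest S534A LPS array (3.39%; 3.25% of all genes), and for 0 members did the reverse hold (1.18% of all genes). The 95% intervals of the members together spanned -0.77, for Trim13, to 0.72, for Trim21.

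Trim21 had the smallest p. Its mean was 10.87 ± 0.07 in S534A LPS livers and 10.36 ± 0.20 in WT LPS livers (SD, n = 4 each), a difference of 0.51 ± 0.09 (SE; 1.42-fold; 95% interval 0.30 to 0.72) with an unadjusted p of 0.000142 and limma adjusted p = 0.0676. The WT LPS arrays fell into replicates 1 and 2 at 10.57 and 10.49 and replicates 3 and 4 at 10.20 and 10.18, all below the lowest S534A array at 10.80. Over 24 alternatives the difference ran from 0.45 to 0.61 and the adjusted p from 0.00142 (with array weights) to 0.685 (without the 3 arrays that carried pancreas transcripts). Trim65 was 6.92 ± 0.13 in S534A LPS livers and 7.16 ± 0.09 in WT LPS livers (-0.24 ± 0.08; unadjusted p = 0.0138; limma adjusted p = 0.517). Trim26 differed by 0.19 ± 0.07 (adjusted p = 0.617), Trim6 by 0.26 ± 0.10 (adjusted p = 0.619) and Trim56 by 0.14 ± 0.06 (adjusted p = 0.797), all higher in S534A by value but short of the threshold. Trim30a differed by 0.08, Trim30d by 0.02, Trim12a by -0.07, Trim12c by -0.13, Trim34a by -0.06, Trim14 by 0.18 and Trim25 by 0.10.

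**Figure D4:**
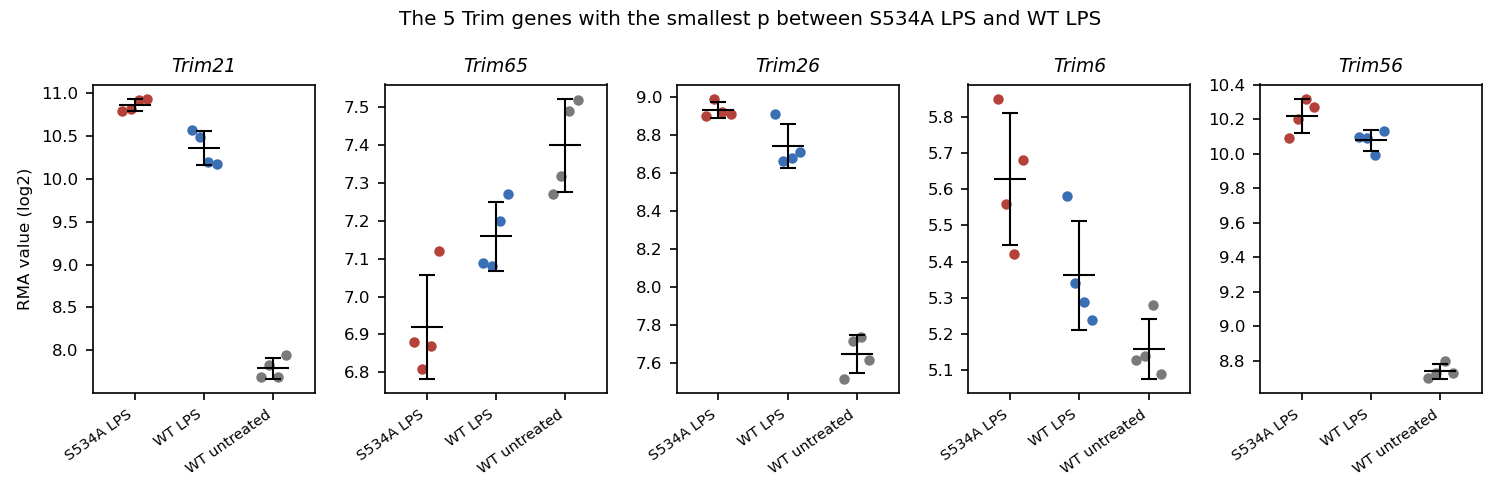
RMA log2 value on each array for the 5 Trim genes with the smallest p between the LPS-treated genotypes, with S534A LPS, WT LPS and WT untreated livers from left to right (4 points each, black bars for mean ± SD). The S534A and WT LPS points are apart for Trim21 and overlap for Trim65, Trim26, Trim6 and Trim56.

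Some members differed among the untreated livers themselves. The 12 measured genes of the circadian clock averaged 8.34, 9.40, 8.02 and 9.46 on untreated replicates 1 to 4, so arrays 2 and 4 stood apart from arrays 1 and 3. This mean pools genes of opposite direction. On those replicates Dbp read 8.14, 11.19, 7.59 and 11.39, and Arntl 9.03, 6.29, 9.08 and 6.20. Nr1d1 and Cry1 did not follow the split. This split was noticed in the data and is given without a test. Of the 59 members 6 (10.2%) had a gap over 0.5 and no overlap between those pairs, as had 1043 of 19938 genes (5.23%). Trim2, a ligase for a neurofilament protein, read 7.47, 7.45, 7.29 and 7.54 in S534A LPS livers, 7.58, 7.21, 7.30 and 7.31 in WT LPS livers and 8.16, 7.08, 7.99 and 7.18 in untreated livers. Its untreated arrays 1 and 3 lay above all 8 LPS arrays and arrays 2 and 4 below them. The WT LPS difference of -0.25 (adjusted p = 0.419) was accordingly -0.73 without untreated arrays 2 and 4 and 0.22 without arrays 1 and 3. Both values follow from leaving out arrays by the split seen in this gene, so no p-value is given for them. Untreated arrays 2 and 4 averaged 8.86 for Trim8, 8.25 for Trim24, 6.32 for Trim34a, 6.80 for Trim13 and 6.65 for Trim68, against 8.26, 7.73, 6.91, 7.31 and 7.15 in arrays 1 and 3. The median SD was 0.08 over members and 0.08 over all genes in S534A LPS livers, 0.13 and 0.14 in WT LPS livers, and 0.16 and 0.13 in untreated livers.

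**Figure D5:**
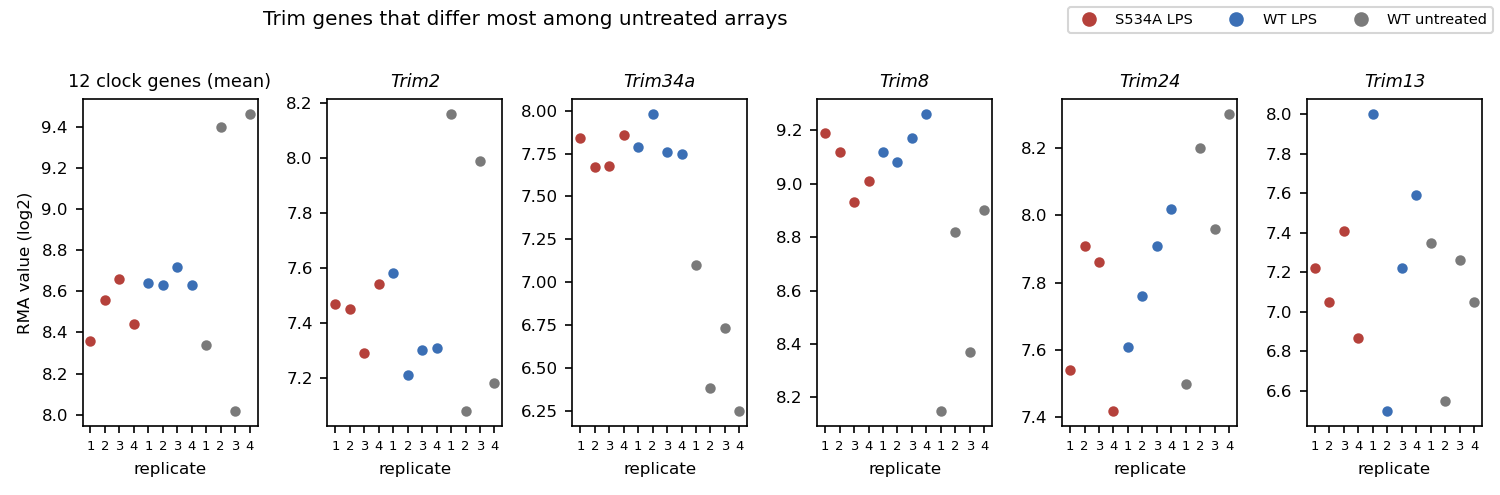
RMA log2 value on each of the 12 arrays, by group and replicate, for the Trim genes that differed most among untreated livers, with the mean of the 12 clock genes. Untreated replicates 2 and 4 lie apart from replicates 1 and 3 in each panel.

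TRIM proteins that carry other names, and the partners of TRIM proteins, were also counted in WT LPS against untreated livers, where 9.34% of all genes rose and 15.6% fell. Of 8 measured TRIM proteins with other names 4 rose and 1 fell (median 0.44). Pml, the organiser of PML nuclear bodies, read 11.03, 11.06, 10.97 and 11.13 in S534A LPS livers, 11.03, 10.90, 10.76 and 10.78 in WT LPS livers and 8.76, 8.55, 8.92 and 8.69 in untreated livers, a WT difference of 2.14 ± 0.08 (adjusted p = 1.16e-09). Rnf135 (Riplet), a RIG-I ligase, differed by 1.51 ± 0.12, Mid1, a microtubule-binding ligase, by 1.42 ± 0.12 and Mefv, which encodes the inflammasome sensor pyrin, by 0.70 ± 0.11. The 1 that fell was Mid2, the paralog of Mid1 (-0.65 ± 0.11). Of 18 partners in RIG-I and STING signalling 12 rose and 1 fell (median 1.05), among them the ISG15 protease Usp18 (3.96 ± 0.09), the RNA sensor Ifih1 (MDA5; 2.23 ± 0.08), its relative Dhx58 (LGP2; 2.96 ± 0.11) and the antiviral zinc-finger protein Zc3hav1 (1.67 ± 0.06). Of 9 genes of type I interferon signalling 5 rose and 0 fell (median 0.52), with Stat2 at 1.38 ± 0.09, Irf9 at 1.12 ± 0.06, the kinase Jak1 at 0.52 ± 0.05 and the inhibitor Socs1 at 0.57 ± 0.07. Of 10 KAP1 silencing partners 1 rose and 6 fell (median -0.35), among them Cbx3 at -0.87 ± 0.15, Chd3 at -0.57 ± 0.10 and Chd4 at -0.31 ± 0.06, while Hdac1 rose by 0.50 ± 0.10. Between the LPS-treated genotypes 1 gene on these 4 lists was called, Socs1, which was 0.86 higher in S534A (adjusted p = 0.000906).

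Neutrophil and monocyte markers moved with LPS as well. The marker counts below stand beside 9.34% of all genes higher and 15.6% lower in WT LPS livers. Mean neutrophil marker values were 7.50 to 7.78 in S534A LPS livers, 7.15 to 7.40 in WT LPS livers and 5.74 to 6.00 in untreated livers, and 10 of 12 markers rose in WT. Mean monocyte marker values were 6.80 to 6.97 in S534A LPS livers, 6.50 to 7.05 in WT LPS livers and 5.54 to 5.66 in untreated livers, and 5 of 6 markers rose in WT. Of 10 Kupffer cell markers 1 rose and 4 fell, of 8 endothelial markers 1 rose and 4 fell, of 6 NK cell markers 2 rose, of 6 T cell markers 0 passed and of 5 B cell markers 1 fell. Hepatocyte markers went both ways, with 3 of 9 risen and 2 fallen. Between the genotypes 2 of 12 neutrophil markers were called higher in S534A, beside 0.166% of all genes. The neutrophil means of the genotypes did not overlap, as with Trim21. The part of these cells in the Trim results was not tested, and in whole liver fewer cells of a type and less RNA per cell cannot be told apart. Exocrine pancreas transcripts averaged 9.67 on S534A LPS replicate 3, 8.68 on WT LPS replicate 2 and 6.93 on WT LPS replicate 3, against 5.94 to 6.29 in untreated livers. Without those 3 arrays 13 members rose and 4 fell in WT LPS livers, and Trim30a, Trim30d, Trim12a, Trim21 and Trim12c were among those that rose.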

How the data were processed

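The authors deposited log2 values from whole-transcript Affymetrix arrays, processed with RMA per the submitters' processing notes. The sources used here give neither its version nor the array's genome build. Of 35556 probe sets, 21789 carried 1 gene symbol, 1621 several and 12146 none, and the first kind was tested. Of these, 21698 matched the RefSeq gene table of GRCm38.p6 by Entrez identifier. Where a gene had several probe sets, the one with the highest mean was used. No dim genes were removed, and nothing was renormalised.

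One limma model (version 3.58.1, R 4.3.3, lmFit and eBayes) was fitted to the 12 arrays, with residual degrees of freedom of 9 and a prior of 3.54. Tests were two-sided, and p-values were Benjamini-Hochberg adjusted over 19938 genes. Arrays were numbered within groups in label order. Named members were those called in WT LPS against untreated livers or between the LPS-treated genotypes, Trim30a, the 5 uncalled members with the smallest p between the genotypes, and from each list the 2 uncalled members of smallest p after LPS. From partner lists, the 4 with the smallest p were named. Trim2, Trim13, Trim24, Trim55, Trim66 and Mid2 were named after their values were seen, as were members listed by motif. Trim68 fell under the list rule, but its untreated means were given after they were seen. Members, lists and motifs were chosen with earlier results of these data known. The fit was tested on simulated data. Alternatives were arrays left out, a dim filter, other probe set rules, array weights, median centring, repeated quantile normalisation, a trended robust fit, 2-group fits and a replicate block. Leaving out untreated arrays 2 and 4, or 1 and 3, was added after seeing the data.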

Additional observations from a re-analysis of the deposited data

Results flagged for a closer look

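In 9 of 111 groups of 4 arrays, over 37 named members, 1 array lay far from the other 3. Chance gives about 1 in 20 such groups. In S534A LPS livers this was Trim26 in replicate 2, at 8.99 against 8.90 to 8.92 in the others. In WT LPS livers it was Trim25 in replicate 1 (11.13 against 10.97 to 10.99), Trim37 in replicate 4 (7.48 against 7.67 to 7.69), and 3 genes in replicate 2: Trim34a (7.98 against 7.75 to 7.79), Trim23 (6.35 against 6.88 to 6.97) and Trim39 (7.10 against 7.54 to 7.57). In untreated livers it was Trim38 in replicate 1 (5.03 against 4.86 to 4.88), Trim3 in replicate 2 (8.60 against 8.79 to 8.82) and Trim23 in replicate 4 (7.24 against 6.93 to 6.97).

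A further 6 probe sets carry several symbols of which at least 1 is a Trim gene, and the comparisons above do not use them. Of these, 4 were higher in WT LPS than in untreated livers (limma, adjusted p under 0.05). The log2 differences were 1.88 for probe set 10566333, 1.73 for 10601581, 0.95 for 10566350 and 0.30 for 10376446. No gene can be named for them, since the annotation gives each several.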

How the results depend on the processing

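Over 26 alternatives the number of members that rose in WT LPS livers ran from 10 to 17 (13 to 15 with 1 array left out) and the number that fell from 0 to 6 (4 to 5). In S534A LPS against untreated livers the numbers were 10 to 18 (13 to 18) and 0 to 6 (5 to 6). With a 2-fold threshold 10 rose and 0 fell in both. Between S534A LPS and WT LPS livers 0 to 1 was higher and 0 to 0 lower with 1 array left out. The 1 was Trim21 without WT LPS replicate 1 (adjusted p = 0.0185), and Trim21 was also the 1 called without untreated arrays 2 and 4 (adjusted p = 0.0465) and with array weights (0.61; adjusted p = 0.00142). Array weights also called 1 lower, Trim65 (-0.29; adjusted p = 0.0459). Over all genes array weights called 344 higher and 132 lower in S534A. Same-number arrays of different groups correlated at -0.27 to 0.21 once group means were removed. With 4 arrays a group this cannot settle whether the replicate numbers pair the samples. A replicate block gave 13 rises and 5 falls in WT, 16 and 5 in S534A, and 0 between genotypes. For named members 1149 of 1214 values kept direction and call, 50 lost a call, 12 gained one and 3 reversed. The reversals were Trim2 without untreated arrays 1 and 3, at 0.31 in S534A LPS and 0.22 in WT LPS against untreated livers, and at 0.03 in S534A without untreated replicate 1 (-0.34 to 0.03 with 1 array left out). Trim8 in S534A LPS against untreated livers lost its call without S534A replicate 1 (adjusted p = 0.0510) and without untreated arrays 1 and 3 (0.21; adjusted p = 0.104). A filter on dim genes kept 32 of 59 members, and members such as Trim7 and Trim6 were not among them. The cause of each change was not tested.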
